A study of Mus musculus with 8 samples.

Results

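Autophagy machinery genes encode the proteins that build the autophagosome, the double membrane that encloses part of the cytoplasm and delivers it to the lysosome. They were followed in dermal fibroblasts sorted from female mice, some fed the control, called Normal Diet (ND), and some a High Fat Diet (HFD). The genes came from a list of 36 named members, grouped here by known role. Of these, 31 were measured, because no probe set names Atg4a, Atg4d, Map1lc3b, Sqstm1 or Optn alone, so the expression of those 5 was not analysed here. The whole table held 17097 genes. Feeding began at 2 months of age and lasted 6 months, and all mice were killed on the same day. No strain is named in the labels. Dermis was digested with collagenase and sorted for Pdgfra and CD34 and against CD45, CD117, CD24, CD31 and EpCam, 10000 cells a sample, and the RNA was amplified over 20 cycles for hybridisation to mouse expression arrays. There were 4 ND and 4 HFD arrays, and ND 4 is labelled as excluded by quality control, so ND 1 to 3 were compared with HFD 1 to 4 to ask how the diet alters these fibroblasts. Each value is the deposited log2 expression of the gene's brightest probe set, and a change is HFD minus ND on that log2 scale.

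Autophagosome formation starts when the ULK1 kinase complex is released from restraint by the nutrient-sensing kinase complex mTORC1. A lipid kinase complex around Becn1 then marks the growing membrane, WIPI and ATG2 proteins bring in lipid, and a set of enzymes that resembles the ubiquitin pathway attaches ATG8 proteins (the LC3 and GABARAP families) to it. Receptors such as Nbr1 hold cargo to the ATG8 proteins. The transcription factor TFEB drives many autophagy and lysosome genes through a DNA element called CLEAR, whose core is CACGTG.

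Of the 31 measured genes 2 were higher in HFD, 0 were lower and 29 did not pass (limma, Benjamini-Hochberg adjusted p under 0.05 over all genes). The genes that passed were Atg101 of the ULK1 complex (0.91, SE 0.23, 1.88-fold) and Map1lc3a, which encodes an LC3 protein (0.27, SE 0.07, 1.21-fold). That is 6.45% of the members against 5.35% of all genes, so the share lies near the background. By direction the background was 2.62% higher and 2.73% lower. The members' median change was 0.05, against 0.02 for all genes, and 22 of the 31 changes were positive, or 71%, against 56.2% of all genes. Without regard to sign the median size was 0.15 for members and 0.09 for all genes. At an unadjusted p under 0.05 the fit held 12 members, or 38.7%, where all genes gave 22.1%. With genes dimmer than the median gene left out, limma gave 10 of 26 members and 2870 of 8554 genes at that p, a smaller gap. The arrays of the diets were fully separate in 9 members, or 29%, against 17.9% of all genes, with HFD above in 6 (9.95% of all genes) and below in 3 (7.99%). The background of all genes holds many dim genes. The sizes, signs and separation of arrays were not set against genes of like brightness. These are sorted bulk cells, so a change in the mix of cells and a change in the RNA of each cell cannot be told apart.

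Both calls lie at the threshold, with adjusted p = 0.0498 each. Neither passed when ND 3, HFD 2, HFD 3 or HFD 4 was left out, or when ND 4 was included, and in each of these settings 0 members passed. Both passed without ND 2. Without ND 1 the 2 members past the threshold were Atg2b and Nbr1, and without HFD 1 they were Gabarapl1 and Nbr1.

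**Figure D1:**
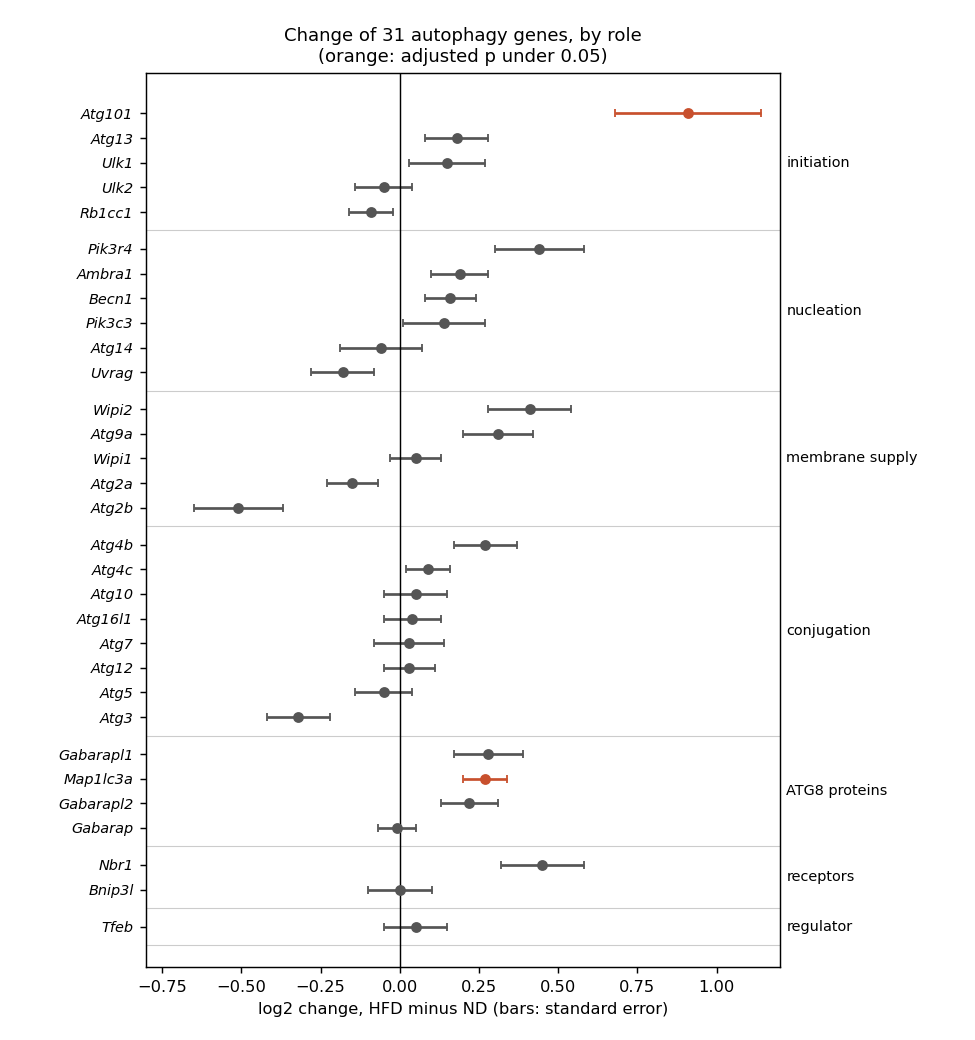
Log2 change (HFD 1 to 4 minus ND 1 to 3, horizontal axis) of the 31 measured autophagy genes, grouped by role, with bars for the standard error. Atg101 at 0.91 lies apart from the rest, which run from −0.51 for Atg2b to 0.45 for Nbr1, and orange marks the 2 genes past the threshold.

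The ULK1 complex consists of the kinases Ulk1 and Ulk2, the adaptors Atg13 and Atg101, and the scaffold Rb1cc1. Atg101, which stabilises Atg13, read 9.06, 9.23 and 8.07 in ND 1, 2 and 3 and 9.52, 9.78, 9.83 and 9.66 in HFD 1 to 4. Every HFD array was above every ND array, and ND 3 lay more than 1 log2 unit below ND 2. The mean was 8.79 ± 0.63 in ND (SD, n = 3) and 9.70 ± 0.14 in HFD (SD, n = 4). The excluded array ND 4 read 9.53, inside the HFD range. Without ND 3 the change was 0.55 (SE 0.11, adjusted p = 0.0866). Only 1 probe set names Atg101, so no second probe set of the gene could be set beside it.

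The 300-base RefSeq window around the Atg101 start (250 bases before to 50 after) is shown because Atg101 has the largest change of the list. It lies on the + strand of GRCm38.p6 at chr15:101284051-101284350 and holds no CACGTG. The table has no window for Map1lc3a.
Atg101: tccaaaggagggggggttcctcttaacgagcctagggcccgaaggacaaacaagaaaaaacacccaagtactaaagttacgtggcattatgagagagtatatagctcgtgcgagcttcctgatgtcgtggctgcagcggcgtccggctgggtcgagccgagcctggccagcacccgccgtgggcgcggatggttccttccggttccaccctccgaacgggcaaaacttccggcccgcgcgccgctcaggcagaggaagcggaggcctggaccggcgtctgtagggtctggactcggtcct

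The other 4 genes of the complex did not pass. Atg13, the adaptor that mTORC1 phosphorylates, read 8.00, 8.01 and 7.84 in ND and 7.97, 8.16, 8.15 and 8.25 in HFD. These ranges overlapped, with a difference of 0.18 (SE 0.10, adjusted p = 0.304), and its second probe set differed by −0.04. Rb1cc1 (also called FIP200) read 4.74, 4.85 and 4.85 in ND and 4.60, 4.67, 4.71 and 4.91 in HFD, a difference of −0.09 (SE 0.07). Its mean of 4.76 was far below the median gene of 6.77, so little signal stood behind that value. Ulk1 differed by 0.15 (SE 0.12) and its second probe set by 0.17. The brightest probe set of Ulk2 differed by −0.05 (SE 0.09), whereas another, nearly as bright at 8.66 against 8.69, read 8.30, 8.47 and 8.23 in ND and 8.34, 9.08, 9.11 and 9.11 in HFD. The latter difference was 0.58 (SE 0.18, unadjusted p = 0.00929, adjusted p = 0.0913 over 28898 probe sets), and HFD 1 lay within the ND range.

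Nucleation depends on the lipid kinase Pik3c3 (VPS34), its regulatory subunit Pik3r4, Becn1, and the partners Atg14 and Uvrag, with Ambra1 as a regulator of Becn1. None of these 6 genes passed. The nearest was Pik3r4, at 6.62, 6.61 and 6.19 in ND and 6.76, 7.21, 6.95 and 6.75 in HFD, which did not overlap. Its difference was 0.44 (SE 0.14, adjusted p = 0.0897), and ND 3 was again the lowest array. Ambra1 was tight in ND at 7.64, 7.66 and 7.63 and read 7.70, 7.94, 7.86 and 7.85 in HFD. The diets did not overlap for this gene, with a difference of 0.19 (SE 0.09, adjusted p = 0.22), while its 2 dim probe sets differed by −0.05 and −0.04.

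Becn1 gave different answers by probe set. The brightest read 10.04, 10.08 and 10.16 in ND and 10.33, 10.31, 10.13 and 10.23 in HFD, a difference of 0.16 (SE 0.08, adjusted p = 0.29), with HFD 3 inside the ND range. A dimmer one read 8.71, 8.53 and 8.20 in ND and 9.04, 9.09, 8.96 and 9.09 in HFD. It rose by 0.57 (SE 0.12) with every HFD array above ND, and it passed when each of the 28898 probe sets was tested alone (adjusted p = 0.0326). The third differed by 0.22, so all 3 had the same sign. Of the remaining genes Pik3c3 differed by 0.14 (SE 0.13), Atg14 by −0.06 (SE 0.13) and Uvrag by −0.18 (SE 0.10).

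Membrane supply rests on Atg9a, a scramblase carried in vesicles, on the lipid transfer proteins Atg2a and Atg2b, and on Wipi1 and Wipi2, which bind the lipid made by VPS34 and recruit the next factors. None of the 5 passed, and their changes were of opposite sign. Atg2b read 7.42, 7.89 and 7.85 in ND and 7.32, 7.38, 7.20 and 6.93 in HFD. Every HFD array was below ND, the nearest 0.04 below ND 1, and the difference of −0.51 (SE 0.14, adjusted p = 0.0636) passed without ND 1 (−0.66, adjusted p = 0.0351). A dimmer probe set of Atg2b differed by 0.02. Atg2a also had all HFD arrays (9.44 to 9.53) below ND (9.60 to 9.66), with a difference of −0.15 (SE 0.08, adjusted p = 0.281).

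Wipi2 went the other way, at 9.11, 9.21 and 8.76 in ND and 9.22, 9.54, 9.57 and 9.41 in HFD. The lowest HFD array and the highest ND array were 0.01 apart, and the difference was 0.41 (SE 0.13, adjusted p = 0.0885). Another of its probe sets, almost as bright, differed by −0.13 and the dimmest by 0.18. Atg9a read 6.25, 6.69 and 6.46 in ND and 6.76, 6.77, 6.67 and 6.89 in HFD, with a difference of 0.31 (SE 0.11, adjusted p = 0.122) and an overlap through HFD 3. Wipi1 was measured by 6 probe sets. Its brightest differed by 0.05 (SE 0.08), but the next brightest read 9.29, 9.16 and 9.25 in ND and 8.86, 8.75, 8.69 and 8.57 in HFD. That probe set fell (−0.52, SE 0.09, adjusted p = 0.0259 over all probe sets), with no overlap, and ND 4 read 8.62. The other 4 differed by −0.11, −0.10, 0.01 and 0.05.

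**Figure D2:**
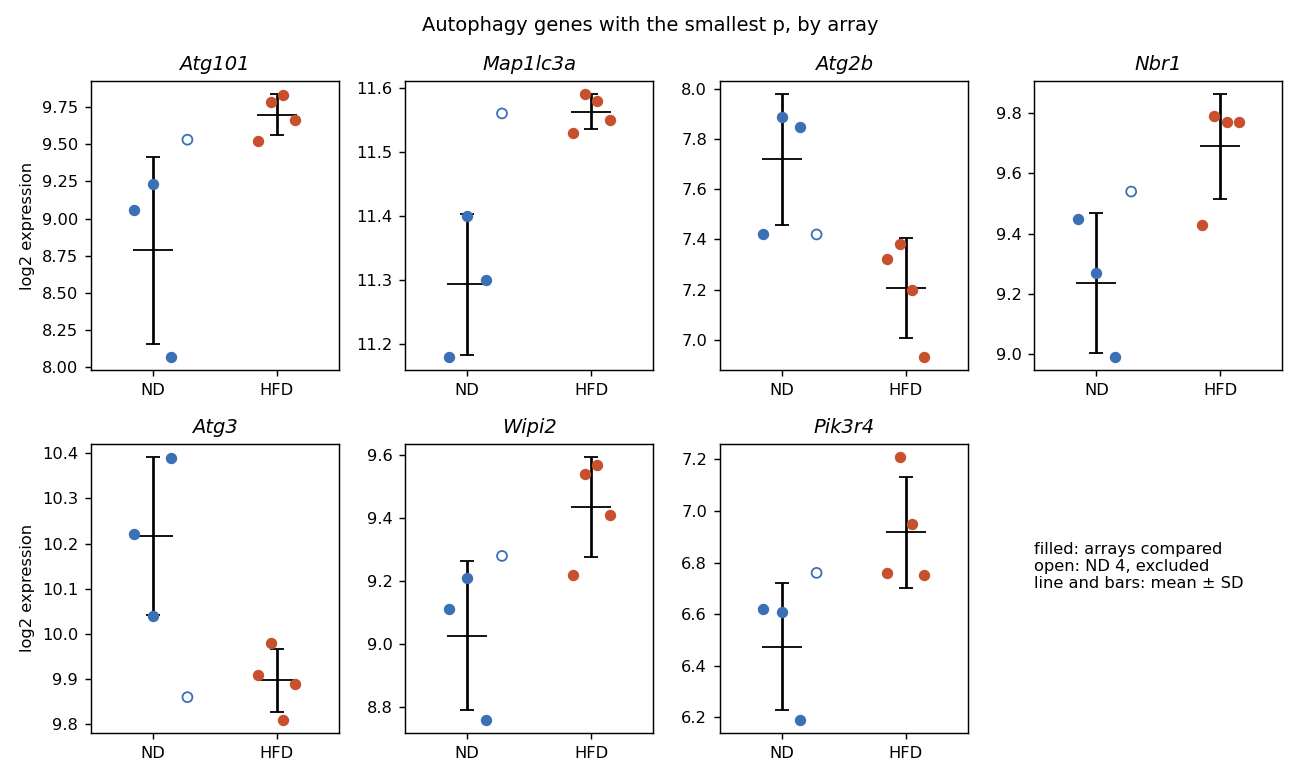
Log2 expression (vertical axis, scaled per gene) in each array for the 7 genes with adjusted p under 0.1, in order of p, with lines for the mean and bars for the SD over the arrays compared. The open circle for ND 4 lies among the HFD arrays for Atg101, Map1lc3a, Atg3, Wipi2 and Pik3r4, at the level of ND 1 for Atg2b, and between the lower HFD 1 and the other HFD arrays for Nbr1.

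Among the conjugation enzymes 0 of 8 passed, and their median change was 0.03. Atg7 is the activating enzyme, Atg3 and Atg10 are the transfer enzymes, Atg12, Atg5 and Atg16l1 form the complex that directs ATG8 proteins to the membrane, and the Atg4 proteases trim and release them. Atg3 stood apart, at 10.22, 10.04 and 10.39 in ND and 9.91, 9.98, 9.81 and 9.89 in HFD. Every HFD array was below ND, with a difference of −0.32 (SE 0.10, adjusted p = 0.0777), and its dim second probe set differed by −0.30 (unadjusted p = 0.0417). Atg4b read 7.83, 8.14 and 7.91 in ND and 8.11, 8.22, 8.25 and 8.35 in HFD, a difference of 0.27 (SE 0.10, adjusted p = 0.15), while its second probe set differed by −0.01. The protease Atg4c was dim, at 5.67, 5.42 and 5.46 in ND and 5.60, 5.68, 5.61 and 5.53 in HFD, with a difference of 0.09 (SE 0.07). ND 1 lay inside the HFD range. The other 5 lay between −0.05 and 0.05, namely Atg10 and Atg16l1 (0.05 and 0.04), Atg7 and Atg12 (0.03 each) and Atg5 (−0.05), with standard errors of 0.08 to 0.11.

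ATG8 proteins are joined to lipid on the growing membrane and bind both cargo receptors and fusion factors. Map1lc3a read 11.18, 11.40 and 11.30 in ND and 11.53, 11.59, 11.58 and 11.55 in HFD. All 4 HFD arrays were above ND and within 0.06 of each other. The mean was 11.29 ± 0.11 in ND (SD, n = 3) and 11.56 ± 0.03 in HFD (SD, n = 4), and ND 4 read 11.56. A dimmer probe set of the gene overlapped between diets, at 9.72, 9.55 and 9.76 in ND and 9.69, 9.84, 9.86 and 9.65 in HFD, and differed by 0.08 (SE 0.09). With the mean of both probe sets the change was 0.18 (adjusted p = 0.177).

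Gabarapl1 read 10.53, 10.50 and 10.33 in ND and 10.49, 10.88, 10.87 and 10.71 in HFD, a difference of 0.28 (SE 0.11, adjusted p = 0.146). HFD 1 alone lay within ND, and without it the change was 0.37 (adjusted p = 0.0457). A second bright probe set of Gabarapl1 differed by 0.0042 (SE 0.10), so the gene's probe sets disagree. Gabarapl2 read 9.28, 9.43 and 9.46 in ND and 9.48, 9.71, 9.56 and 9.67 in HFD. It did not overlap, and the difference of 0.22 (SE 0.09, adjusted p = 0.196) did not pass. Gabarap, in contrast, read 11.87 to 12.02 in ND and 11.87 to 11.99 in HFD, with a difference of −0.01 (SE 0.06).

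Of the cargo receptors, Nbr1, which delivers ubiquitin-tagged cargo, read 9.45, 9.27 and 8.99 in ND and 9.43, 9.79, 9.77 and 9.77 in HFD. HFD 2, 3 and 4 lay within 0.02 of each other and above all ND arrays, while HFD 1 fell inside the ND range. The difference was 0.45 (SE 0.13, adjusted p = 0.0684), and it passed without HFD 1 (0.54, adjusted p = 0.0352) or ND 1 (0.56, adjusted p = 0.0489). A dimmer probe set went the opposite way (−0.22, SE 0.11, unadjusted p = 0.0768). Bnip3l (NIX), a receptor on mitochondria, read 9.74, 9.57 and 9.81 in ND and 9.52, 9.82, 9.82 and 9.67 in HFD. The diets overlapped fully, with a difference of 0.0008 (SE 0.10), though a dimmer probe set differed by 0.22 (unadjusted p = 0.0294). The regulator Tfeb was dim, at 5.47, 5.49 and 5.31 in ND and 5.65, 5.29, 5.34 and 5.60 in HFD. Its difference was 0.05 (SE 0.10, adjusted p = 0.833), and the HFD arrays lay on both sides of ND.

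**Figure D3:**
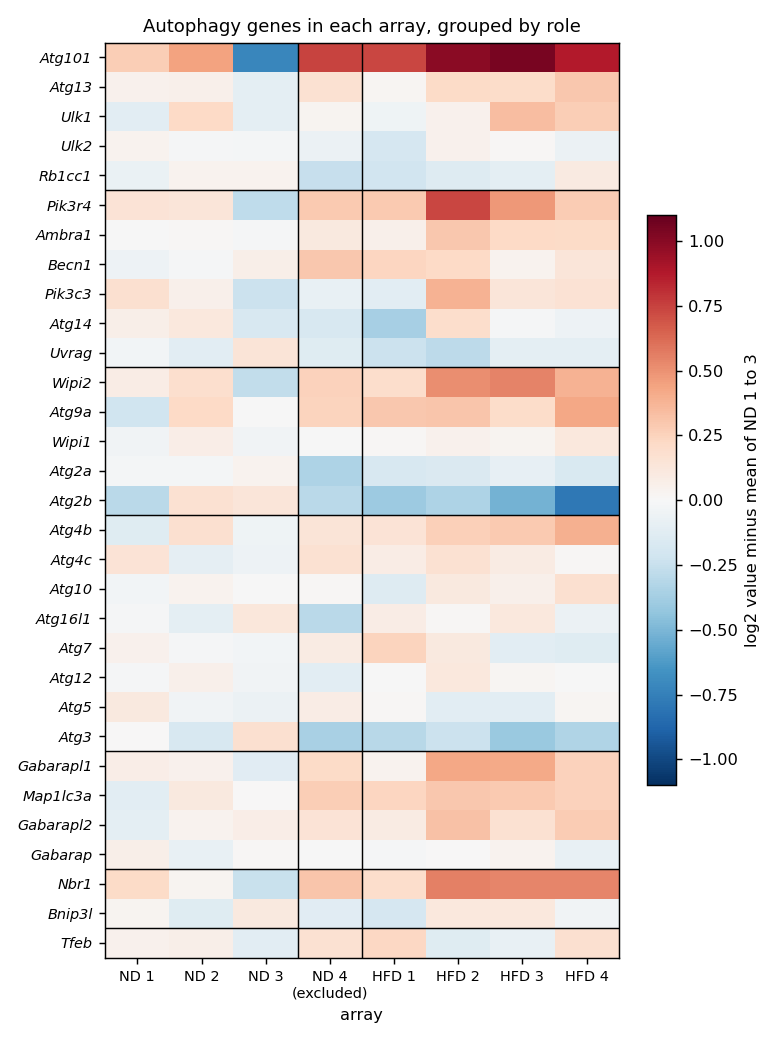
Log2 value of each of the 31 genes minus its mean over ND 1 to 3 (colour, red above and blue below), by array in columns and by role in rows separated by lines. ND 3 is the bluest of the ND columns for Atg101, Pik3r4, Wipi2 and Nbr1, HFD 1 resembles ND in several rows, and the ND 4 column shares colours with HFD.

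Across the list, 17 genes had more than 1 probe set. All probe sets had the same sign in 6 of them and did not in 11. Wipi1, Ulk2 and Atg7 each had a dimmer probe set of opposite sign with an unadjusted p under 0.05, which makes 3 such genes. Of the 62 member probe sets 2 passed when all were tested alone, against 1374 of 28898 in the whole table, so the share lies near the background. Neither of the 2 was the brightest of its gene, since they were the Becn1 and Wipi1 probe sets above. Atg101 and Map1lc3a then had adjusted p = 0.0523 each.

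**Figure D4:**
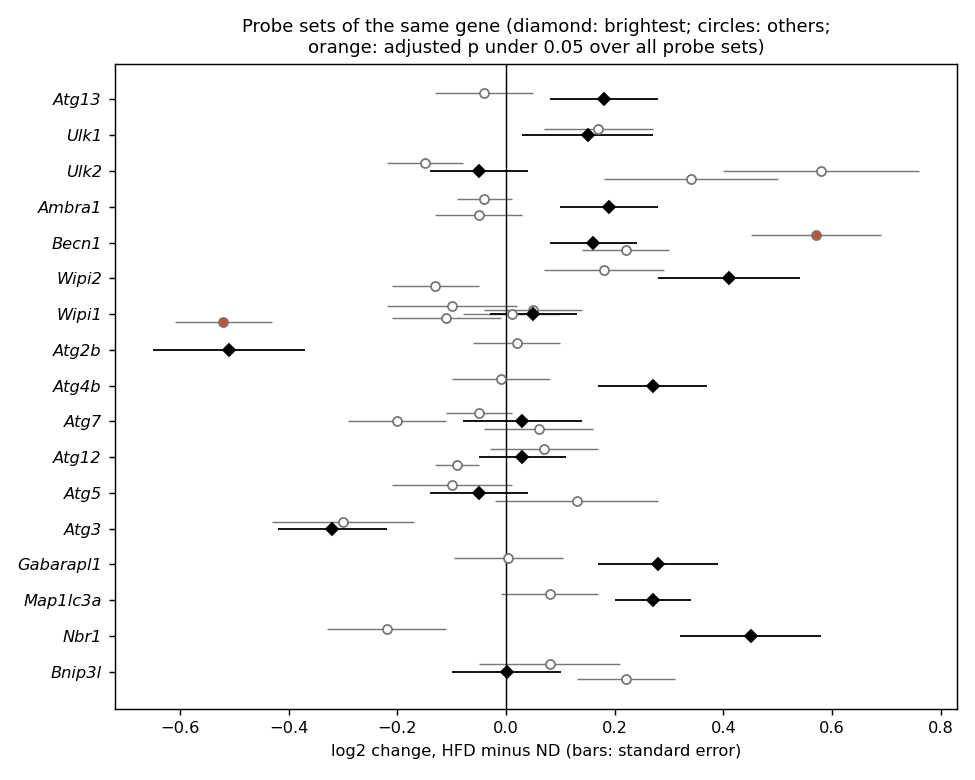
Log2 change (horizontal axis, bars for the standard error) of every probe set of the 17 genes with more than 1, the brightest as a black diamond and others as circles. The orange circles of Becn1 (0.57) and Wipi1 (−0.52) passed over all probe sets, and the diamonds and circles of Nbr1, Atg2b and Gabarapl1 lie apart.

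The CLEAR core CACGTG was sought on both strands in RefSeq windows of GRCm38.p6, which covered 29 of the 36 genes, including the 5 whose expression was not analysed. Of these 29, 4 held it, Atg3, Atg5, Atg7 and Atg14, or 13.8%, against 8.09% of 27025 genes with a window. The first 3 are conjugation genes. The full CLEAR palindrome and the FOXO site GTAAACA occurred in 0 of the 29 (0.37% and 4.05% of all genes), and the cAMP response element TGACGTCA in 1, Atg5 (2.03% of all genes). None of the genes with a core passed the threshold, but of the members that passed Atg101 had a window and Map1lc3a did not. The sites are shown with 10 bases on either side and the core in capitals, read along the gene's strand, since they are the members' only matches, and lie at chr16:45158725-45158750 and chr16:45158748-45158773 (Atg3, + strand), chr10:44268315-44268340 (Atg5, + strand), chr6:114670954-114670979 (Atg7, + strand) and chr14:47568420-47568445 (Atg14, − strand).
Atg3 first site: ctccttttgtCACGTGtcctgggaga
Atg3 second site: agagtcgagtCACGTGaggccttagg
Atg5: gagcgcttgcCACGTGgtcttggtga
Atg7: tattggtggtCACGTGtgcagtaagt
Atg14: aacaaaatccCACGTGactggccctg

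The first base of the core lay 94 and 71 bases before the Atg3 start, 14 before Atg5, 132 before Atg7 and 1 before Atg14. Atg3 held 2 cores and was also the conjugation gene with the largest difference, which did not pass. A match of these letters says nothing on its own about binding by TFEB.

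Genes that act around this machinery were taken from a second list of 99, of which 85 were measured. In HFD 7 were higher and 4 lower, while 74 did not pass, so 12.9% passed against the 5.35% of all genes. That background holds many dim genes. With genes dimmer than the median gene left out, 13 of 73 passed, against 1387 of 8554 genes in the whole table, so the share then lay near the background. The median change of the 85 was 0.03. Higher were the mitophagy kinase Pink1 (0.96, SE 0.16, adjusted p = 0.0224), the fusion tether subunit Vps33a (0.68, SE 0.16) and the SNARE protein Vamp8 (0.47, SE 0.12). The mTORC1 scaffold subunit Lamtor5 (0.46, SE 0.11), the mitochondrial deubiquitinase Usp30, which opposes mitophagy (0.45, SE 0.10), Tbk1, a kinase that phosphorylates cargo receptors (0.39, SE 0.08) and the adaptor Tollip (0.33, SE 0.08) were also higher. Lower were the SNARE protein Vamp7 (−1.03, SE 0.18, adjusted p = 0.0224), the folliculin partner Fnip2 (−0.51, SE 0.12), the GTPase Rragd, which helps place mTORC1 on lysosomes (−0.33, SE 0.08), and the AMPK catalytic subunit Prkaa2 (−0.32, SE 0.07). For these 11 genes, chosen by their p on the same arrays, the arrays of the diets did not overlap. Of the 85 genes 24 did not overlap, or 28.2%, against 17.9% of all genes. The count past the threshold was 4 without ND 2 and 2 without HFD 2. It was 0 without ND 3, HFD 3 or HFD 4, with ND 4 included, or with either covariate described at the end (limma, 22 to 26 at an unadjusted p under 0.05 in these fits, and 6 with the covariate for RNA quality).

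By role, 1 of 27 mTORC1 and AMPK genes was higher and 3 were lower. In the fusion group of 16 genes 2 were higher and 1 lower, and among 18 genes of selective autophagy and mitophagy 4 were higher and 0 lower. Over all genes 2.62% were higher and 2.73% lower. With genes dimmer than the median gene left out, 1387 of 8554 genes passed in either direction. None of 17 further phagophore genes passed (limma, with 7 at an unadjusted p under 0.05), nor did any of 7 transcriptional regulators (4 at an unadjusted p under 0.05). All genes gave 22.1% at that p in limma, and 2870 of 8554 with the dim ones left out. Among the transcriptional regulators 6 of 7 differences were negative, where all genes gave 7482 of 17097. The negative differences were led by Mitf, a relative of Tfeb (−0.62, SE 0.17, adjusted p = 0.0638), and Foxo3 (−0.30, SE 0.09, adjusted p = 0.0684). Foxo3 was lower in every HFD array, and its 2 other probe sets differed by −0.31 and −0.23. The AMPK subunit Prkab1 (−0.45, adjusted p = 0.0568), the reticulum receptor Rtn3 (−0.32, adjusted p = 0.0651) and the mTORC1 inhibitor Ddit4 (0.62, adjusted p = 0.0725) also did not pass.

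Probe sets agreed for Pink1, whose second probe set differed by 0.97 (SE 0.15), and had the same sign for Tbk1 (0.24). They differed in size for Vamp7 (−0.12), Vps33a (0.14), Usp30 (0.09), Rragd (−0.04) and Tollip (0.01), where the second probe set was close to 0. A dimmer Prkaa2 probe set differed by −0.25 and the dimmest by 0.01. With the mean of probe sets 3 of the 11 passed, Pink1, Tbk1 and Vamp7.

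**Figure D5:**
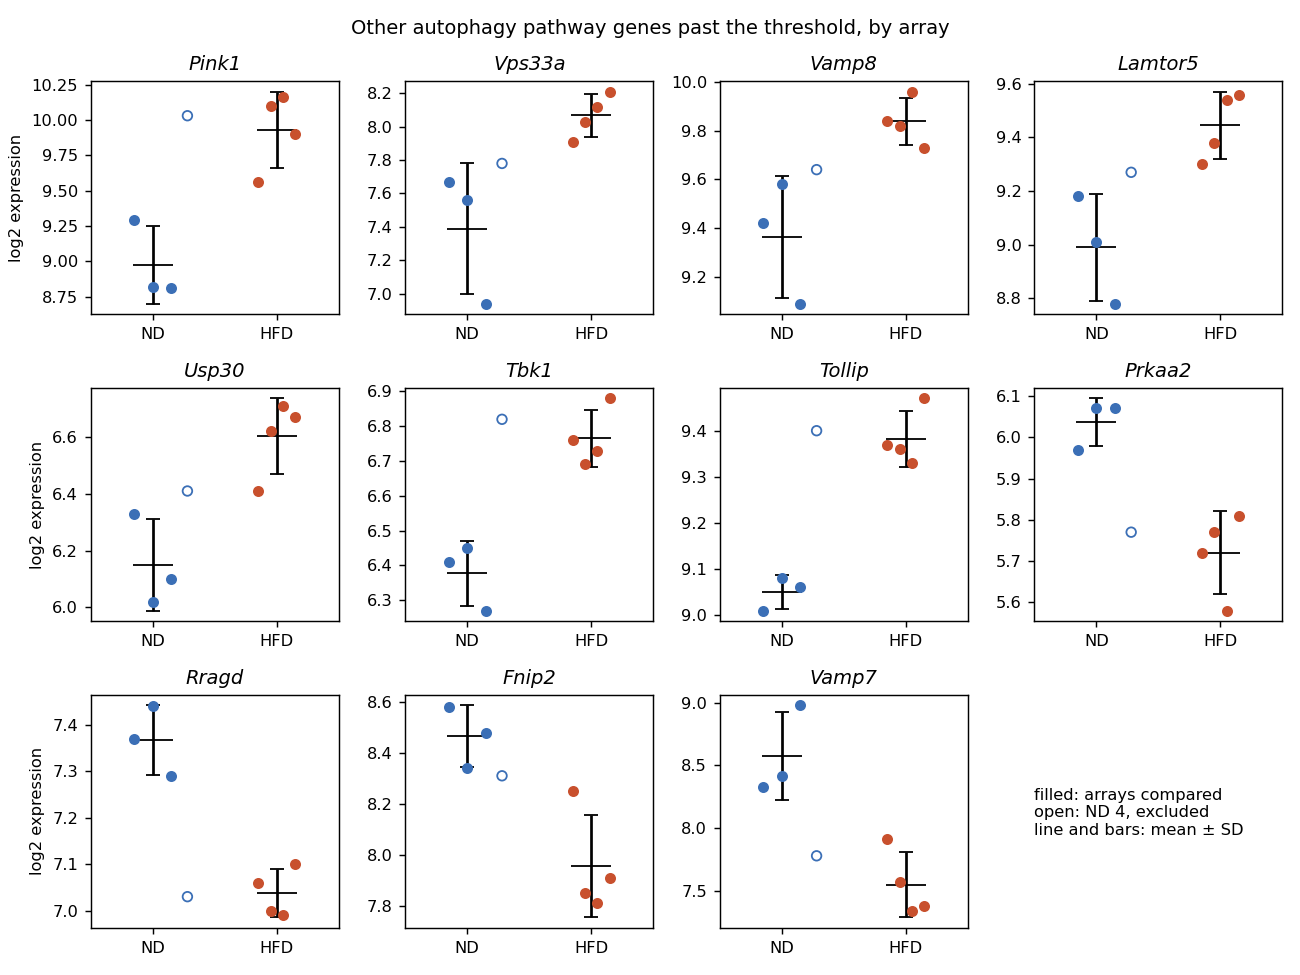
Log2 expression (vertical axis, scaled per gene) by array of the 11 further pathway genes past the threshold, from the largest rise to the largest fall, with lines for the mean and bars for the SD over the arrays compared. No HFD point overlaps an ND 1 to 3 point. The open circle of ND 4 lies on the HFD side in 7 panels, or 63.6%, against 61.8% of all genes without overlap.

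Measures of RNA quality and of other cells were set beside these results. Control probe sets at the 3′ and 5′ ends of Gapdh and Actb show how evenly a transcript was copied, and their mean gap, 3′ less 5′, was −0.29, −0.335 and −0.18 in ND 1, 2 and 3, −0.37 in ND 4, and −0.40, −0.44, −0.375 and −0.44 in HFD 1 to 4. ND 3, which had the lowest Atg101, lay farthest from HFD. The gap did not overlap between the diets compared, so a fit with it as a covariate cannot tell it apart from diet. With this gap as a covariate the change of Atg101 was 0.01 (SE 0.26), of Wipi2 0.06 (SE 0.20) and of Pik3r4 0.06 (SE 0.22). That of Map1lc3a was 0.23 (SE 0.13) and of Atg2b −0.41 (SE 0.27). No gene of the whole table passed in that fit (limma, 0 genes, while an unadjusted p under 0.05 was reached by 604 genes and 0 members).

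Of 21 keratinocyte markers 20 had a positive difference and 0 passed (limma, 5 at an unadjusted p under 0.05), and their mean log2 level was 6.15 to 6.46 in ND and 6.24 to 7.29 in HFD. With that mean as a covariate the change was 0.80 (SE 0.30) for Atg101, 0.27 (SE 0.09) for Map1lc3a and 0.28 (SE 0.14) for Nbr1, and 0 members passed. Mean levels of 10 dermal fibroblast markers were 11.39 to 11.44 in ND and 11.32 to 11.41 in HFD, although Pdgfra itself was dim (5.92 and 6.27). Means of 8 blood markers were 5.84 to 5.90 and 5.87 to 5.94. Tyrobp passed among these (0.32), and Lum and Fbln1 fell among the fibroblast markers. The markers of vessels (6 genes), adipocytes (4), melanocytes (5), Schwann cells (1) and muscle and pericytes (6) held 0 genes past the threshold, with 0, 0, 0, 0 and 1 at an unadjusted p under 0.05. The part of RNA quality or other cells in the results was not tested.

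The excluded array lay mostly with HFD. Of the 9 whose diets did not overlap, ND 4 lay on the HFD side in 8, or 88.9%, and with ND in Atg2b. Over all 3068 genes without overlap that share was 61.8%. Within each diet the members had a median SD of 0.110 in ND and 0.105 in HFD, against 0.098 and 0.097 for all genes.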

How the data were processed

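The values are log2 expression of 45141 probe sets that the authors deposited, made with RMA and the affy package per the submitters' processing notes, whose versions are not given in the sources used here. Array quartiles agreed within 0.04, so a change in total RNA would not show, and no pair of arrays was a duplicate. No detection calls were used. Of 29449 annotated probe sets, 28898 name 1 gene and 551 several, and symbols were updated by Entrez identifier for 28689 through a RefSeq table of GRCm38.p6. The brightest probe set over the 7 arrays stood for each gene.

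HFD 1 to 4 and ND 1 to 3 were fitted in limma 3.58.1 (R 4.3.3, lmFit, eBayes with trend) over 17097 genes, with Benjamini-Hochberg adjustment at 0.05, and the fit was tested on simulated data. Each specimen was taken as 1 mouse, since the design text gives 4 per diet, and p-values measure the spread between these samples, which the number of arrays limits. Members and lists were chosen with earlier results of these data known. Array values are given for members past the threshold and for the 3 members with the smallest p per role. Further pathway genes are named by their change, those past the threshold and 5 more by smallest p. Other names were chosen after their values were seen. Other settings were all 8 arrays, 1 array removed at a time, a block for the specimen, dim genes left out, quantile and centred scaling, other eBayes options, array weights, other probe set rules, covariates and thresholds. Promoter windows come from RefSeq (GRCm38.p6). Figures used matplotlib 3.10.9.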

Additional observations from a re-analysis of the deposited data

Results flagged for a closer look

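In 1 of the 42 genes examined for an outlying array in HFD, 1 array stood away from the other three. That gene was Nbr1, where HFD 1 read 9.43 and the others 9.77 to 9.79, a gap of 0.94 of the whole range. Chance alone marks about 1 group in 20, and groups of 3 arrays, such as ND, were not examined.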

How the results depend on the processing

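The direction of Atg101, Map1lc3a and the 11 further pathway genes past the threshold was the same in every setting run, but the calls were not. Most settings could not have turned it. The diets did not overlap for these genes, so leaving out 1 array keeps the sign, and eBayes options and thresholds keep the same change. With the 3′ to 5′ covariate the change of Atg101 was 0.01 (SE 0.26), so its sign there carries no weight. For all genes, the count of 914 was 6 with ND 4 included, 1387 with dim genes left out (8554 genes tested), and 400 with the mean of probe sets. It was 1374 over every probe set, and 1947 and 5 at thresholds of 0.1 and 0.01. With the keratinocyte covariate it was 14 and with the 3′ to 5′ covariate 0 (604 at an unadjusted p under 0.05 in limma). Leaving out 1 array gave 6 to 1072, and the lowest were 6, 9 and 11 without HFD 3, HFD 4 and ND 3. For the members, the count of 2 was 5 with dim genes left out (26 members tested), 7 at a threshold of 0.1, and 1 with quantile normalization or median centring. It was 0 with ND 4 included, with eBayes untrended or robust, with the mean of probe sets, with each probe set tested alone and the brightest read, with either covariate and at 0.01, and between 0 and 14 members had an unadjusted p under 0.05 in these limma fits. Leaving out 1 array gave 0 to 2. Their median change lay between 0.01 and 0.09 throughout. Among the 85 further pathway genes measured, the count of 11 was 17 at 0.1, 3 with the mean of probe sets, and 0 with ND 4 included, with either covariate and at 0.01, and 0 to 10 without 1 array. The cause of these differences was not tested.

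The sample titles give same-numbered specimens only a shared number. Their deviations correlated at −0.18, −0.29 and −0.05, and 0 of 3 ND arrays correlated best with their own number. These values cannot show whether such specimens were handled together, which was not tested. With the specimen number as a replicate block 1 gene, 0 members (8 at an unadjusted p under 0.05 in limma) and 0 further pathway genes passed, and Gabarap was 0.01.

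Signs turned only for members whose adjusted p was 0.301 or more. With the 3′ to 5′ covariate they were −0.0039 for Ulk1, −0.0032 for Atg13, −0.23 for Pik3c3, 0.04 for Uvrag, −0.04 for Wipi1 and Atg10, −0.0043 for Atg7, −0.05 for Atg12, 0.07 for Gabarap and −0.11 for Tfeb. With the keratinocyte covariate they were −0.09 for Pik3c3, −0.04 for Atg10, −0.01 for Atg12 and −0.14 for Bnip3l. The mean of probe sets gave 0.18 for Ulk2, −0.10 for Wipi1 and −0.04 for Atg7, array weights −0.01 for Atg7, and median centring −0.02 for Bnip3l. Without 1 array the ranges were −0.15 to 0.04 (Atg14), −0.08 to 0.0025 (Atg5), −0.05 to 0.08 (Atg7), −0.02 to 0.10 (Atg16l1), −0.06 to 0.02 (Gabarap), −0.07 to 0.06 (Bnip3l) and −0.01 to 0.11 (Tfeb). For dim genes such as Rb1cc1, Tfeb and Atg4c, signal near the background limits what a difference can show.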
